A study of Drosophila melanogaster with 3 samples.

Results

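Chromatin immunoprecipitation followed by sequencing (ChIP-seq) had mapped the zinc finger protein Noc in whole Drosophila melanogaster larvae, and the peaks described here are those whose summit, the position of highest signal in the peak, fell inside an exon and away from a promoter. A summit was kept when it lay more than 500 bp from every annotated transcription start site (TSS) and inside any annotated exon on dm6 (Ensembl, transposons left out). The authors had kept 7201 peaks by irreproducible discovery rate (IDR), which scores whether a peak holds a similar rank across replicates, and 207 of these met the rule (2.87%, Wilson 95% interval 2.51% to 3.29%). They comprised 46 summits in 5' UTRs, 91 in 3' UTRs, 15 in coding exons and 55 in other exons, all of which belonged to genes annotated as noncoding RNA. The 207 summits lay in 187 genes, 141 of them protein-coding. All 3 libraries came from larvae of a transgenic line expressing noc fused to GFP at its C terminus, with males and females pooled and an age given in the labels as 48 days, which is long for a larva and may be an error of unit, so the stage is uncertain. Chromatin was sheared by sonication to 200 to 800 bp and precipitated with an antibody against GFP, in 3 biological replicates of 1 group. No untagged larvae were analysed here, so signal at an exon may include what the antibody or the assay gives without the tag. Because whole larvae were used, the cell types behind a peak cannot be told apart. Peak lists carry no read totals, so depth is unknown, and Wilson intervals cover counting error over summits only.

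Exons are the parts of a gene kept in the mature RNA. In a protein-coding gene the 5' UTR precedes the coding sequence and the 3' UTR follows it, while long noncoding RNAs (lncRNAs) and antisense RNAs (asRNAs) have exons without a coding sequence. ChIP-seq reads DNA, so a peak in a UTR marks a stretch of chromatin and says nothing of protein bound to the transcript. Transcription factors of flies are found mostly at promoters and in enhancers, which often lie in introns and between genes, and coding sequence is usually poor in such peaks. Noc belongs to a small family of zinc finger proteins known from the development of eyes and ocelli, legs and tracheae.

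The DNA at the strongest summits of each class is shown because base composition is one property in which the classes differed. Each line gives 30 bases of the plus strand of dm6, from the RefSeq copy of the assembly, for the 2 strongest members of a class, with the summit as base 16 and the longest run of A and T in capitals.
lncRNA:Vinr, exon of a noncoding RNA, chrX:12751306-12751335: ttttgAAATATAAATTTTgatatatgccaa
lncRNA:CR45303, exon of a noncoding RNA, chr2L:14497077-14497106: cTATAcaatgtcgacagcggttcagtgctg
baz, 5' UTR, chrX:17178724-17178753: ttgtattcttagagatcTTTTATTAATATA
Raf, 5' UTR, chrX:2296310-2296339: cttacaaatcgcagTATTTAcctggcaaac
stas, 3' UTR, chrX:17625045-17625074: gttaacattgcgtatacgTTATTTTATTAc
CG7872, 3' UTR, chrX:15579794-15579823: cacATTcgcgtgtttcctaactaacttgac
bif, coding exon, chrX:11681723-11681752: acagaaccggcgacAATcagtagcactagt
Naprt, coding exon, chr2L:4195819-4195848: gttgcgaaagaacagatcgAATAccgccgt
The longest run of A and T was 13 bases at lncRNA:Vinr and at baz, 11 at stas and 6 at Raf. It was 4 at lncRNA:CR45303 and 3 at CG7872, as short as at the coding summits, with 3 at bif and 4 at Naprt. Both coding summits held 15 G or C among the 30 bases, and so did lncRNA:CR45303, while lncRNA:Vinr and baz held 5 each. A/T richness was therefore not shared by all strong members.

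Exonic summits were set against the replicates' own lists. The IDR peaks are the strongest 7201 peaks of the authors' pooled list, which was made from these same libraries together. A match is therefore favoured by that choice, and the shares serve only to compare classes. Replicate 2 stood apart from the others before any division into classes, with 68.9% of all IDR summits within 100 bp of one of its 7201 strongest summits, against 82.5% in replicate 1 and 78.6% in replicate 3. Among the 207 exonic summits the shares were 83.1%, 64.7% and 85.5% in replicates 1, 2 and 3, and among the 2783 intronic summits they were 81.0%, 71.9% and 77.7%. Exonic summits were thus matched more often than intronic ones in replicates 1 and 3, by 2.10 and 7.79 percentage points, and less often in replicate 2, by a difference of -7.17 points. The mean difference was 0.906 ± 7.55 points (SD, n = 3), smaller than its spread (exact sign-flip permutation test over replicates, two-sided, p = 0.75, where 0.25 is the smallest p that 3 replicates allow). All 3 replicates matched 105 of the 207 exonic summits (50.7%, Wilson 44.0% to 57.5%), beside 49.7% of all IDR summits. In the replicates' whole lists of 30000 peaks, 170 exonic summits (82.1%) were matched in all 3, beside 78.6% of all IDR summits. By class, 29 of 55 noncoding RNA exon summits, 22 of 46 in 5' UTRs, 48 of 91 in 3' UTRs and 6 of 15 in coding exons were matched in all 3 lists of 7201.

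Density per unit of sequence differed by class far more than between replicates. Over the sequence of each class away from start sites, noncoding RNA exons carried 51.6 IDR summits per Mb, and the replicates' own lists of 7201 peaks gave 53.4, 49.7 and 53.4 per Mb. Introns carried 52.7 per Mb, with 51.0, 57.1 and 51.1 in the replicates, a range that overlapped that of noncoding RNA exons. In 5' UTRs the density was 44.1 per Mb (47.0, 48.9 and 50.8 in the replicates), again overlapping the range of noncoding RNA exons and, in the replicates, lying below every intron value. For 3' UTRs it was 13.4 per Mb (14.03, 12.7 and 16.2), below every replicate value of intergenic sequence (17.5, 22.8 and 17.1). Coding exons stood lowest at 0.854 per Mb, with 0.797, 0.911 and 1.42 in replicates 1, 2 and 3. The average over all classes, promoters included, was 53.8 per Mb. Noncoding RNA exons stood at 0.959 times, 5' UTRs at 0.820 times, 3' UTRs at 0.2498 times and coding exons at 0.0159 times that average. Promoters, at 194.3 per Mb, raise it and hold no member by the rule. These ratios therefore do not place a class above or below other sequence away from start sites.

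**Figure D1:**
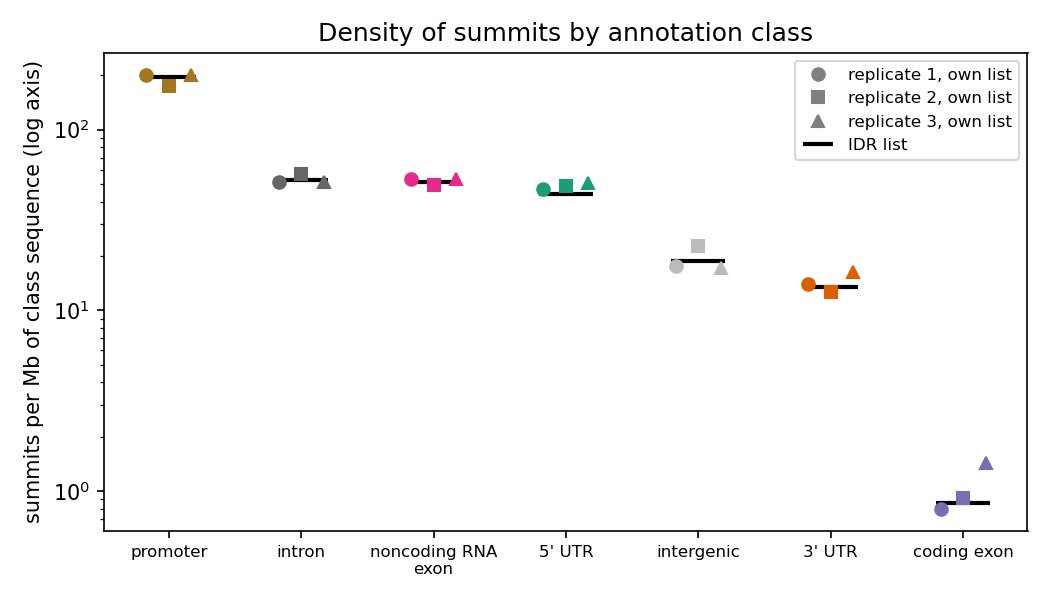
Summits per Mb of sequence in each annotation class (log axis), with a bar for the IDR list and a symbol for each replicate's own list of 7201 peaks. Noncoding RNA exons and 5' UTRs stand near introns at 44.1 to 52.7 per Mb, and coding exons stand lowest at 0.854 per Mb.

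Exonic summits became more frequent down the ranking by signal, and most of that rise came from coding exons. In the pooled list, made by the authors from all 3 libraries together, exonic summits were 2.87% of ranks 1 to 7201 (which are the IDR peaks), 4.46% of ranks 7202 to 15000, 6.17% of ranks 15001 to 22500 and 7.97% of ranks 22501 to 30000. The coding share went from 0.208% to 0.692%, 1.89% and 3.35% over the same ranks, from 15 to 251 summits. Each replicate's own ranking gave the same order, from 0.194% to 4.71% in replicate 1, from 0.222% to 4.96% in replicate 2 and from 0.347% to 4.08% in replicate 3. The 3' UTR share rose from 1.26% to 2.71% in the pooled list, and also from the first to the last ranks in every replicate. Noncoding RNA exons showed no steady order, with 0.764%, 0.936%, 1.17% and 0.893%, and 5' UTRs held 0.639%, 0.974%, 1.07% and 1.03%.

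**Figure D2:**
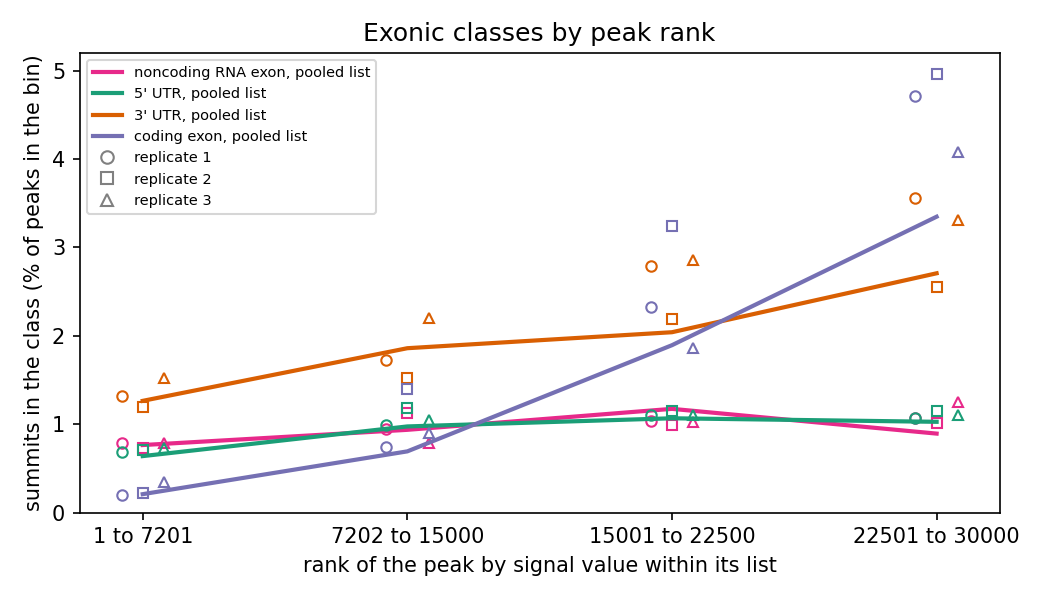
Share of summits in each exonic class (percent of the peaks in the bin) by rank of the peak within its list, with lines for the pooled list and open symbols for the replicates. Coding exon summits are the rarest class among the strongest 7201 peaks and pass 3% in the weakest bin of every list.

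Within the IDR list the exonic peaks had signals like those of the other peaks, with the lowest median in coding exons. Signal is the authors' own value per peak, on a scale not stated in the sources used here, and is used only to describe and rank peaks within a list. The median signal of the 207 peaks was 369.1 (95% interval from order statistics 335.0 to 409.1), beside 353.4 for intronic and 373.6 for promoter peaks. Noncoding RNA exons had a median of 390.5, 3' UTRs 371.6, 5' UTRs 357.3 and coding exons 282.3. The interval of the coding median (231.2 to 473.3) held the medians of the other classes. In the stronger part of the IDR list, ranks up to 3600, lay 105 exonic peaks, of which 5 were coding. Among the 500 strongest peaks of all 3 replicates were 9 exonic summits (4.35% of the members, beside 4.71% of all IDR summits): 5 in noncoding RNA exons, 3 in 3' UTRs, 1 in a 5' UTR and 0 in coding exons.

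**Figure D3:**
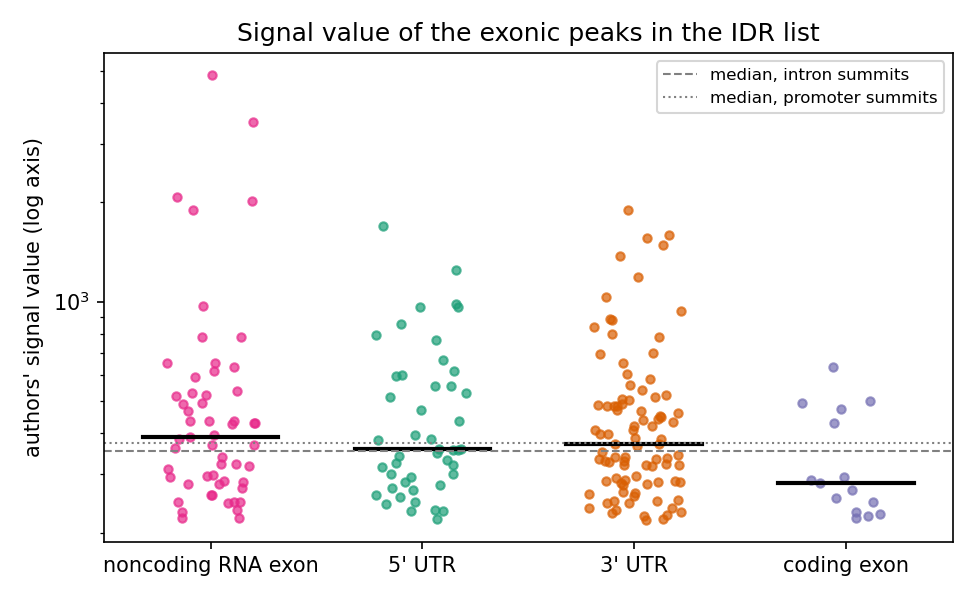
Authors' signal value (log axis) of each exonic peak by class, with black bars for class medians and lines for the medians of intronic and promoter peaks. Noncoding RNA exons hold the strongest peaks, up to 4844, and no coding exon peak passes 635.3.

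The 5 strongest noncoding members lay in lncRNAs, 4 of them in a transcript with 1 exon, although another transcript of lncRNA:CR44468 had an intron at the summit. Highest was the peak in lncRNA:Vinr (signal 4844, rank 7), a lncRNA induced by virus infection, with its summit at X 12751321. It ranked 10, 8 and 18 in replicates 1, 2 and 3, so it was among the strongest peaks of every list. Its interval was 2334 bp wide and carried 3 IDR summits. The neighbouring lncRNA:CR44619 had an exonic summit as well (signal 1895, X 12754538), 33 bp from the end of its transcript, with ranks 147, 131 and 226. With a second summit in lncRNA:Vinr (signal 299.8) and a pair in the 3' UTR of CG4004 (signals 485.6 and 258.5), 5 of the 6 IDR summits from the start of CG4004 to the end of lncRNA:CR44619 (X 12744212 to 12754571) were exonic. This stretch was chosen after the values were seen.

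The next lncRNA peak lay beside the locus of the tagged gene. The summit in lncRNA:CR45303 (signal 3498, rank 35, 2L 14497092) was 3073 bp beyond the end of noc (2L 14490859 to 14494019), and it ranked 50, 42 and 19 in the replicates. Whether the tagged copy adds DNA of this region was not tested. It was the only exonic summit within 10 kb of noc, so the counts given above change by 1 without it. A peak in lncRNA:CR44468 (signal 2072) ranked 156, 127 and 168, and one in lncRNA:CR46035 (signal 2012), inside an intron of the chromatin remodelling gene osa, ranked 161, 114 and 203. Both were among the 500 strongest peaks of every replicate. Further down came asRNA:CR44018 (signal 971.5, ranks 557, 884 and 775), whose nearest TSS belonged to the homeodomain gene hth, lncRNA:acal (783.1), which is known to restrain JNK signalling, and lncRNA:CR42839 (779.5).

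Most noncoding RNA exon summits lay more than 500 bp from the end of the transcript. Their median distance to that end was 755 bp, and 21 of 55 lay within 500 bp of it. Of the 55 summits, 47 lay in genes named as lncRNAs and 8 in genes named as asRNAs. Last exons held 52 of them and first exons 37, a single exon counting as both, and none lay in an internal exon. Most of these transcripts had only 1 or 2 exons and so no internal exon, and that absence follows largely from this. How many of all noncoding RNA exons are first or last was not counted. The median exon length was 2095 bp, and 47 summits had at least 50 bp of exon on each side. Another gene's intron also covered 20 of the summits, and a gene on the opposite strand overlapped 16, so the label of a noncoding exon and that of an intron applied together in many places. Several of these genes carried more than 1 member. In lncRNA:CR46006 on 3L there were 3 (signals 634.7, 286.8 and 234.0), in lncRNA:CR43650 on 2R 3 (434.1, 390.5 and 385.4) and in lncRNA:CR43334 on 3L 3 (339.1, 285.1 and 247.8).

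The 46 summits in 5' UTRs mostly lay in exons that other transcripts of the same gene treat as intron. This applied to 28 of them (60.9%), against 5 of 91 in 3' UTRs, 2 of 15 in coding exons and 2 of 55 in noncoding RNA exons. Their median distance to a TSS was 928 bp, and 25 lay within 1000 bp of one. For 42 of the 46 the nearest TSS was one of the same gene. The strongest lay in exon 2 of baz (signal 1696, X 17178739), the gene of the cell polarity scaffold Par-3, with ranks 254, 286 and 225. The summit in Raf, the kinase gene of the MAP kinase pathway (signal 1249, X 2296325, exon 2), ranked 275, 376 and 702. Both peaks were thus strong in every replicate, with the widest spread at Raf.

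Next by strength among the 5' UTR members were 6 further genes. In dos, an adaptor gene of receptor tyrosine kinase signalling (signal 985.3), the ranks were 727, 484 and 927, and in eas, the gene of ethanolamine kinase (964.7), they were 611, 604 and 1062. SREBP, the transcription factor gene of fatty acid synthesis (964.3), ranked 876 and 968 in replicates 1 and 3 and had no summit within 100 bp in replicate 2. Replicate 2 also gave lower places to dop, a kinase gene (signal 792.2, ranks 866, 3928 and 953), and to sbb (768.1, ranks 764, 5839 and 944), a nuclear corepressor gene. The stress kinase gene Ask1 (857.8) ranked 1071, 1338 and 550. In cbt, the gene of the zinc finger protein Cabut, the 5' UTR held a summit (signal 554.9, 2L 478928) in the same 3402 bp interval as the strongest peak of the series. The gene spen, for an RNA-binding corepressor, carried 3 members in its second exon (593.9, 316.5 and 260.7). The Hippo pathway kinase gene wts carried a pair 207 bp apart (556.4 and 381.3), the stronger 6093 bp from any TSS.

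Of the 91 summits in 3' UTRs, 85 lay in a last exon. Most 3' UTR sequence lies in last exons, so this count follows largely from the class. The median distance to the nearest end of a transcript with that UTR was 261 bp, with 63 summits within 500 bp and 42 within 200 bp, while the UTRs that held them had a median length of 840 bp. Within the UTR the summits were spread, with a median position at 0.534 of its length, 13 summits in the first 25% and 28 (30.8%) in the last 25%. In the replicates' own lists the share in the last 25% was 36.8%, 34.9% and 35.5%, and the share within 500 bp of an end was 67.7% ± 8.79 (SD, n = 3). For 42 of the 91 the nearest TSS belonged to the same gene, so more than in any other exonic class it belonged to a neighbour.

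**Figure D4:**
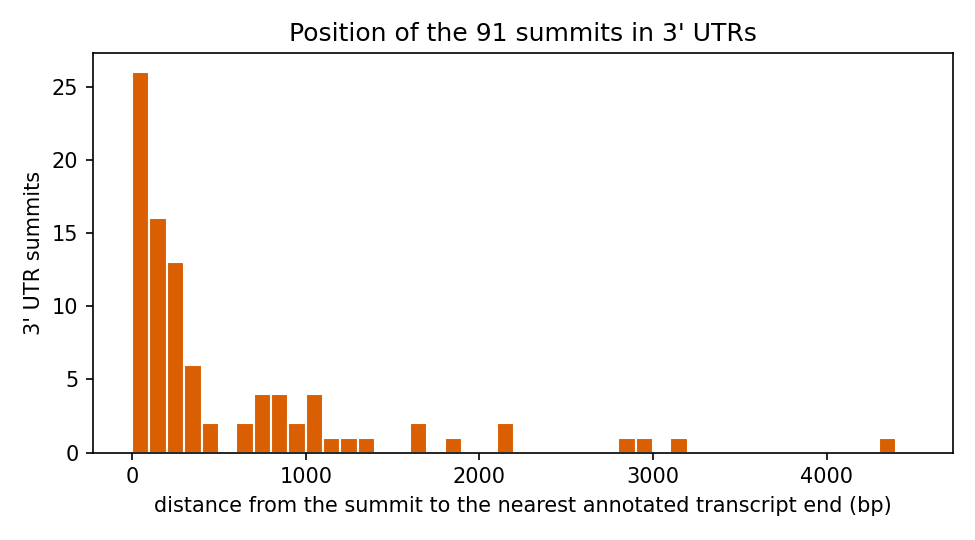
Number of 3' UTR summits by distance from the summit to the nearest end of a transcript carrying that UTR (bp, bins of 100 bp). The counts are highest nearest to the end, with 63 of 91 summits within 500 bp.

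The strongest 3' UTR summits are given with their ranks in the replicates. As for every member named by strength, the signal that chose them came from the same libraries, so high ranks are a description and no independent support. In stas (stasimon, signal 1900, X 17625060) the ranks were 218, 227 and 141, and in CG7872 (1594, X 15579809) they were 322, 272 and 268, with the summit 48 bp from the transcript end. Pbgs, the gene of porphobilinogen synthase in heme synthesis (signal 1553), ranked 236, 587 and 150. The gene by (blistery), which encodes the focal adhesion protein tensin (1482), ranked 325, 446 and 293. For scf, a gene of a calcium-binding protein (1370), the summit was 47 bp from the end and the ranks were 384, 702 and 329. A peak in puml, a gene of fat storage (1188.5), ranked 440, 909 and 390. CG8206 (1032) and CG5984 (937.1) followed, with summits 64 and 17 bp from the end. Replicate 2 gave the lowest place in 6 of these 8.

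Lsd-2, the gene of a perilipin that coats lipid droplets, held more exonic members than any other gene. Its 4 summits (signals 798.8, 482.4, 282.8 and 249.4) lay in 3' UTR sequence on X between 15069532 and 15071484, in a gene that spans 15069127 to 15076220 on the minus strand. They came from a pair of intervals with 2 summits each, 200 bp apart, where the closest spacing in the IDR list was 199 bp. The strongest ranked 784, 2831 and 622 in replicates 1, 2 and 3, and for a pair of the others no summit of replicate 2 lay within 100 bp. In eas there were 3 members, a pair in the 5' UTR and 1 in the 3' UTR (signal 371.6). Of the 187 genes, 170 held 1 member, 11 held 2, 5 held 3 and 1 held 4. Members of eas, wts and lncRNA:CR46006 also included summits only 201 to 207 bp from another. Members per gene are therefore not a count of separate sites.

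Coding exons held 15 summits in 14 genes, none of them among the 1000 strongest IDR peaks. The strongest lay in exon 3 of bif (bifocal), a gene of an actin-associated protein of photoreceptors, at X 11681738 (signal 635.3, rank 1458), with ranks 1163, 1718 and 2173 in the replicates. A second summit in the same exon (signal 248.2, X 11683680) ranked 7050 and 3438 in replicates 1 and 3 and was missing from replicate 2. Naprt, a gene of NAD synthesis (signal 500.6, exon 3, 2L 4195834), ranked 1854, 2351 and 2506. Dab, the gene of the adaptor Disabled (492.2), ranked 2223, 2363 and 3175, CG10962 (473.3) 1891, 2615 and 3399, and Exn (430.3) 2879, 3884 and 3070. None of these 5 strongest coding summits ranked below 3884 in any replicate.

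The remaining coding members were weaker. CG5346 had a signal of 295.4, CG6678 of 289.0, CG13085 of 282.3, Tab2, an adaptor gene of the Imd pathway, of 270.1, and Usp1, a ubiquitin protease gene, of 253.9. At the foot of the list were Dyro (231.2), l(3)72Dp (227.4), Sdb (224.8) and sut1, a sugar transporter gene (221.5). Their ranks differed between replicates to varying degrees. In CG5346 they were 4542, 7341 and 4788, and in CG6678 they were 5858, 5637 and 3752. In Sdb they were 6090, 19922 and 8326, and in sut1 they were 9815, 15087 and 2914. Room in the exon separated this class too: 7 of 15 coding summits had at least 50 bp of exon to each side, against 79 of 91 in 3' UTRs, 41 of 46 in 5' UTRs and 47 of 55 in noncoding RNA exons. The exons themselves differed in length, with medians of 486 bp for coding, 1568 bp, 965 bp and 2095 bp in the same order. Shares at equal exon length were not taken. Dab, Dyro and l(3)72Dp had their summits 2, 2 and 3 bp from the exon's edge, the last 2 genes in exons of 33 and 51 bp. In the replicates' own lists 57.8% ± 11.8 of coding summits had 50 bp to each side, against 88.3% ± 1.90 in 3' UTRs (SD, n = 3).

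Base composition followed the class. GC content within 50 bp of the summit averaged 36.7% in noncoding RNA exons, 37.3% in 3' UTRs, 41.2% in 5' UTRs and 52.9% in coding exons, beside 35.7% in introns and 37.2% at promoters. The replicates' own lists gave 35.9% ± 1.49, 36.9% ± 0.123, 41.3% ± 0.888 and 52.4% ± 2.10 in the same order of exonic classes (SD, n = 3). In 3' UTRs the summit was poorer in GC than the exon around it, by 7.68 ± 0.426 points over replicates (SD, n = 3), and at 72 of 91 IDR summits. The exon there includes coding sequence, and set against the UTR alone the difference was 1.36 ± 0.371 points, with 51 of 91 summits below. For noncoding RNA exons, which have no coding part, it was 5.46 ± 1.72 points, with 33 of 55 summits below. In 5' UTRs, set against the UTR alone, it was 2.05 ± 0.900 points, with 28 of 46 summits below. In each of these comparisons all replicates had the same sign, and the exact sign-flip permutation test, two-sided, gave p = 0.25, the smallest that 3 replicates allow. For coding summits the sign depended on the reference. Exon minus summit was -1.01 ± 1.97 points over replicates (SD, n = 3, p = 0.75 by the same exact permutation test) and 0.753 points over the IDR summits. Coding part minus summit was 2.02 ± 1.35 points, above 0 in all 3 replicates (p = 0.25 by the exact permutation test), and 2.80 points over the IDR summits.

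**Figure D5:**
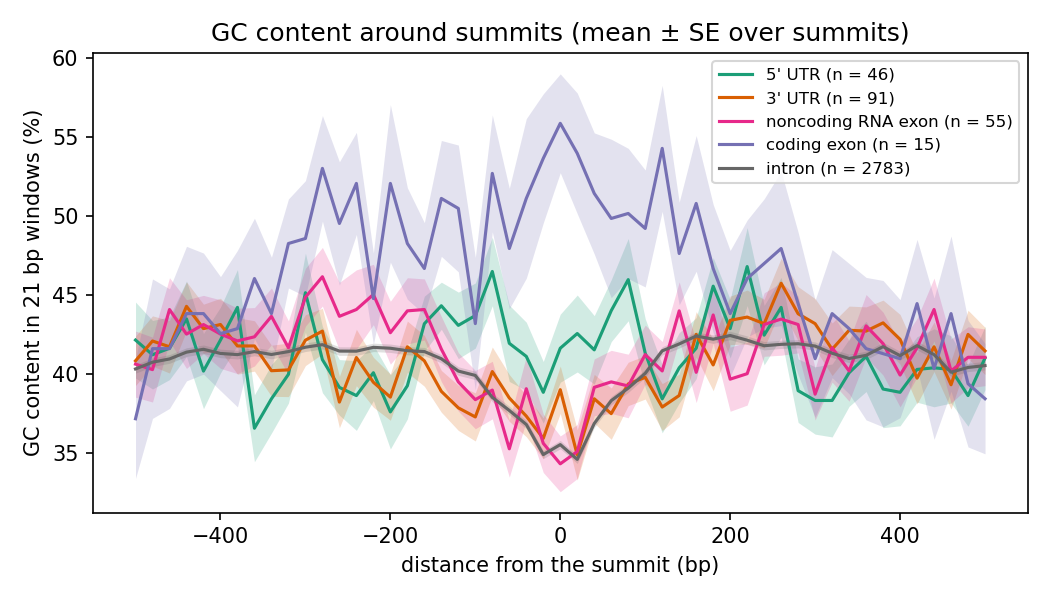
Mean GC content in 21 bp windows (percent) by distance from the summit in bp, with bands of 1 SE over summits, for each exonic class and for introns. Noncoding RNA exons and introns are low at the summit, at 34.3% and 35.5%, and 5' UTRs stand at 41.6%. The 39.0% of 3' UTRs at the summit lies between 35.9% and 34.9% in the windows 20 bp to each side. Coding exons are at 55.9% in the summit window, over 15 summits. Within 50 bp of the summit they average 52.9%, against 55.7% in the coding parts that hold them.

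Short words known from transcription factor sites were counted around the summits. The search took in 50 bp to each side of the summit on either strand, and a match is a run of letters, not a shown site. GATAA, the core of GATA factor sites, occurred at 71 of 207 exonic summits (34.3%, Wilson 28.2% to 41.0%) and at 29.4% of the other IDR summits, with 30.2% ± 5.22 and 29.0% ± 1.40 over the replicates' own lists (SD, n = 3). Among those other summits the share was 33.5% in introns, near the exonic share, and 26.1% at promoters. The homeodomain core TAATTA occurred at 12 exonic summits (5.80%, Wilson 3.35% to 9.86%) against 9.84% of all other IDR summits. Over the replicates' own lists it was at 8.85% ± 2.59 of exonic and 9.63% ± 0.629 of other summits, and the exonic shares of 8.37%, 11.7% and 6.53% were all above that of the IDR list. GAGAGAG occurred at 5 (2.42%) against 1.67%. The E-box CACGTG occurred at 0 of 207 against 0.858%, and 3 counts, the limit that a count of 0 allows, would be 1.45%. In the lists of replicates 1, 2 and 3 it was at 0.930%, 0% and 0.408% of exonic summits. Other summits there had 0.759%, 0.672% and 1.14%, so the absence was not seen in every list.

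The exonic share was higher on X than on the large autosomal arms in each replicate. Of 1204 IDR summits on X, 47 were exonic (3.90%), against 2.40% on 2L, 2.63% on 2R, 2.74% on 3L and 2.87% on 3R. In the replicates' own lists X had 3.98%, 3.36% and 4.70%, against 2.80%, 2.75% and 3.15% on the 4 large autosomal arms together. The difference was 1.11 ± 0.476 points (SD, n = 3), above 0 in all 3 replicates (exact sign-flip permutation test, two-sided, p = 0.25, the smallest possible here). Of the 47 members on X, 5 lay in the stretch from CG4004 to lncRNA:CR44619 and 4 in Lsd-2. Exonic sequence was not counted by arm, and the cause of the difference was not tested.

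Few members fell in gene lists for pathways and tissues, which hold only some genes of each. Of 13945 protein-coding genes 141 held an exonic summit (1.01%). TpnC73F, a troponin C gene, was the member among 19 muscle genes (3' UTR, signal 234.9), and Lsd-2 the member among 15 fat body genes. None of the 92 cytosolic ribosomal protein genes held an exonic summit, with 3.26% as the limit that 3 counts give, nor did 17 genes of the ecdysone response (17.6%), 20 listed for the EGF receptor pathway (15%), 19 of the Dpp pathway (15.8%), 20 of the Wingless pathway (15%), 18 of the Notch pathway (16.7%), 20 of neurons and glia (15%), 13 of glycolysis (23.1%) or 4 genes of the noc region, noc, elB, osp and Adh (75%). The EGF receptor list did not include Raf and dos, described above, which act in receptor tyrosine kinase signalling, so its count of 0 does not cover the whole pathway. At an average of 1.01%, lists of this size cannot show a shortfall.

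The 500 bp limit cut through a continuous range of distances. Of 1485 IDR summits in any exon, 1278 lay within 500 bp of a TSS and were left out. Exonic summits numbered 46 in the last 100 bp inside the limit and 19 in the first 100 bp beyond it. The nearest kept lay in a 5' UTR on 3R, in lncRNA:CR45542 and in CG44008, at 505, 507 and 512 bp, with signals of 285.7, 619.0 and 466.1. The nearest left out lay in CG14442, CNBP and lncRNA:CR44363, at 499, 497 and 497 bp, with signals of 267.6, 984.2 and 611.7.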

How the data were processed

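The files were peak lists without headers. Per the text notes deposited beside them, a replicate's list came from its own alignment set against a control alignment (not analysed here). The pooled list used the alignments of all 3 libraries, and the IDR list was derived from these 4 lists. The assembly was dm6, per the labels. Which caller and aligner were used is not given in the sources used here. Signal values are the authors' score for each peak. The −log10 q value deposited by the authors was not used. A summit is the peak start plus the deposited offset; coordinates are 1-based.

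Classes followed Ensembl release 115 (BDGP6) with promoters (500 bp) first, then 5' UTRs, then 3' UTRs, coding sequence, exons of noncoding genes, introns and intergenic sequence. Replicate lists were set to the 7201 peaks of highest signal and matched within 100 bp. Positions and matching were tested on simulated data. The exact sign-flip permutation test over 3 replicates was used. Named genes were all coding members, the 8 strongest of each other class, genes with 3 or more members and members among the 500 strongest in all replicates; CG4004, cbt, wts and osa were added after their values were seen. Members and lists were chosen with earlier results of these data known. Alternatives are in the closing section. Work was done in Python 3.11.15 with scipy 1.17.1, pandas 2.3.3, numpy 2.4.6 and, for plots, matplotlib 3.10.9.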

Additional observations from a re-analysis of the deposited data

How the results depend on the processing

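The number of exonic summits (207) was 339 with a promoter distance of 250 bp and 136 with 1000 bp, and 105 in the stronger part of the IDR list; fewer peaks or a wider promoter leave fewer by construction. IDR summits also found in both other replicates numbered 110 without replicate 1, 153 without replicate 2 and 119 without replicate 3. The replicates' own lists gave 215, 206 and 245, RefSeq annotation 208 (207 shared), summits in no intron of the same gene 170, 1 summit per interval 197 and, chosen after seeing the data, summits in no intron of any gene 143. The share matched in all 3 replicates (50.7%) was 36.2% within 50 bp, 63.3% within 250 bp, 66.7% for any shared base and 82.1% in the whole lists, and 53.1% to 73.9% when matched in both others without 1 replicate. The difference between exonic and intronic summits was -2.53 points without replicate 3 and 4.94 without replicate 2 (0.309 without replicate 1); the cause was not tested. Summits with exon to each side were 84.1% at 50 bp, 91.8% at 25 bp and 73.4% at 100 bp. The median signal stayed between 366.9 and 375.7. No read totals were at hand, so what depth limits could not be measured.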

Other observations

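For 25 of the 207 exonic summits the nearest other IDR summit was 200 bp away, give or take 5 bp (12.1%, against 11.9% of all IDR summits), and no IDR summit had another closer than 199 bp. Intervals with more than 1 summit held 30 exonic summits (14.5%, against 10.6% of all IDR summits), and 6 exonic summits shared their interval with a promoter summit.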
